A study of Homo sapiens with 12 samples.

Results

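Levels of 7 human mRNAs were followed after knockdown of the La-related proteins LARP4A and LARP4B: those of the poly(A)-binding proteins PABPC1, PABPC4 and PABPN1, of the PABP-interacting proteins PAIP1, PAIP2 and PAIP2B, and of RACK1. They were taken by symbol from the 28306 gene symbols of the tables. For each symbol the transcript model on a numbered chromosome or X with the most fragments over all libraries was used. Poly(A)-selected RNA was sequenced from PC3, a line of prostate adenocarcinoma cells, and from MG63, an osteosarcoma line, both labelled as wild type. The lines also differed in culture medium, so line and medium cannot be told apart. In each line the groups were a non-targeting siRNA (siControl), an siRNA against LARP4A (siLARP4A) and one against LARP4B (siLARP4B). All cells received siRNA at 10 nM with a lipid transfection reagent and were harvested 72 h later. Every group has 2 libraries, described by the submitters as biological replicates. Whether the libraries of a group came from separate cultures is not stated per sample. The labels do not give the number or sequence of the siRNAs behind each name. RNA was measured and protein was not, and in bulk RNA fewer cells making a transcript and less RNA per cell cannot be told apart.

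Cytoplasmic poly(A)-binding proteins coat the poly(A) tail of mRNAs, bind the scaffold eIF4G at the capped end and so link the tail to translation, and they also set how fast the tail is shortened. PAIP1 stimulates translation through PABPC1, whereas PAIP2 and its relative PAIP2B displace PABPC1 from poly(A) and from eIF4G. LARP4A and LARP4B are RNA-binding proteins that carry a PABP-binding motif and bind the 40S subunit scaffold RACK1, and LARP4A has been linked to protection of poly(A) tails. PABPN1 acts earlier, in the nucleus, where it stimulates poly(A) polymerase and controls tail length.

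The libraries held 16950119 to 24864977 fragments and 17822 to 18561 genes were detected in each. The targeted genes checked the labels. LARP4, which encodes LARP4A, fell by 2.98 on the log2 scale in PC3 and by 1.96 in MG63 after siLARP4A. LARP4B fell by 2.44 in PC3 and by 1.70 in MG63 after siLARP4B. LARP4 also rose by 0.43 in MG63 after siLARP4B (adjusted p = 8.4e-06), so in that group both genes differed from siControl. Epithelial keratins were high in PC3 (KRT8 at 203 to 301 FPKM, fragments per kilobase of mRNA scaled to the library's total), while the prostate lineage gene KLK3 stayed at or below 0.031 FPKM there. Collagen COL1A1 was at 719 to 1340 FPKM in MG63, whereas the bone gene RUNX2 was at 0.140 to 0.654 FPKM, and HBB of blood cells was at 0 in every library.

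RACK1 belongs, like the ribosomal protein genes, to the mRNAs known to begin with a pyrimidine tract, so the sequence around its start is shown beside those of 3 other genes whose annotated RefSeq start (GRCh38.p14), like that of RACK1, coincides with the model used here. Each window has 15 bases before and 15 bases from the start on, and capitals mark the unbroken run of C or T that touches the start.
RACK1, chr5:181243892-181243921, minus strand: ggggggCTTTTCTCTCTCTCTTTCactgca
PABPN1, chr14:23321442-23321471, plus strand: cgggcggcgggCCCCagtctgagcggcgat
PAIP1, chr5:43557063-43557092, minus strand: ttttgggggagaaCTggaaagccgagggta
PAIP2B, chr2:71227089-71227118, minus strand: gcggggcgaggaggCagtgtgcagtaagag
The run was 18 bases long in RACK1, against 4 in PABPN1, 2 in PAIP1 and 1 in PAIP2B. It counts bases on both sides of the start, so its length is not that of a tract in the mRNA. In PABPN1, PAIP1 and PAIP2B the whole run lies before the start, and in RACK1 it spans the start. Runs of at least 10 bases touching the start were found in 3.94% of all 35116 start windows, on the strand of the gene. They were found for 6.27% of the 11855 tested genes with a window and for 15 of 23 tested 40S ribosomal protein genes (65.2%). These matches describe letters at annotated starts and not the ends of the RNAs in these cells.

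RACK1 and PABPC1 were by far the most abundant of the mRNAs, and PAIP2B was close to absent from MG63. By mean FPKM in siControl cells, RACK1 ranked 45 in PC3 and 18 in MG63 among 22747 genes, and PABPC1 ranked 64 and 78. PABPC4 ranked 854 in both lines, PABPN1 799 and 1201, PAIP2 1281 and 712, and PAIP1 2058 and 1505. PAIP2B ranked 11366 in PC3 and 15645 in MG63. PABPC1 took between 0.171% and 0.255% of the fragments of a library. Other genes lie within or opposite some of these loci: MIR7705 within PABPC1 had 82 to 191 fragments, SNORD95 and SNORD96A within RACK1 at most 9, and SLC23A1 opposite PAIP2 3 to 11. The order in PC3 siControl was RACK1, PABPC1, PABPN1, PABPC4, PAIP2, PAIP1, PAIP2B, and the FPKM ranges of neighbours in that order did not overlap. In MG63 siControl PAIP2 stood above PABPC4 and PABPN1.

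**Figure D1:**
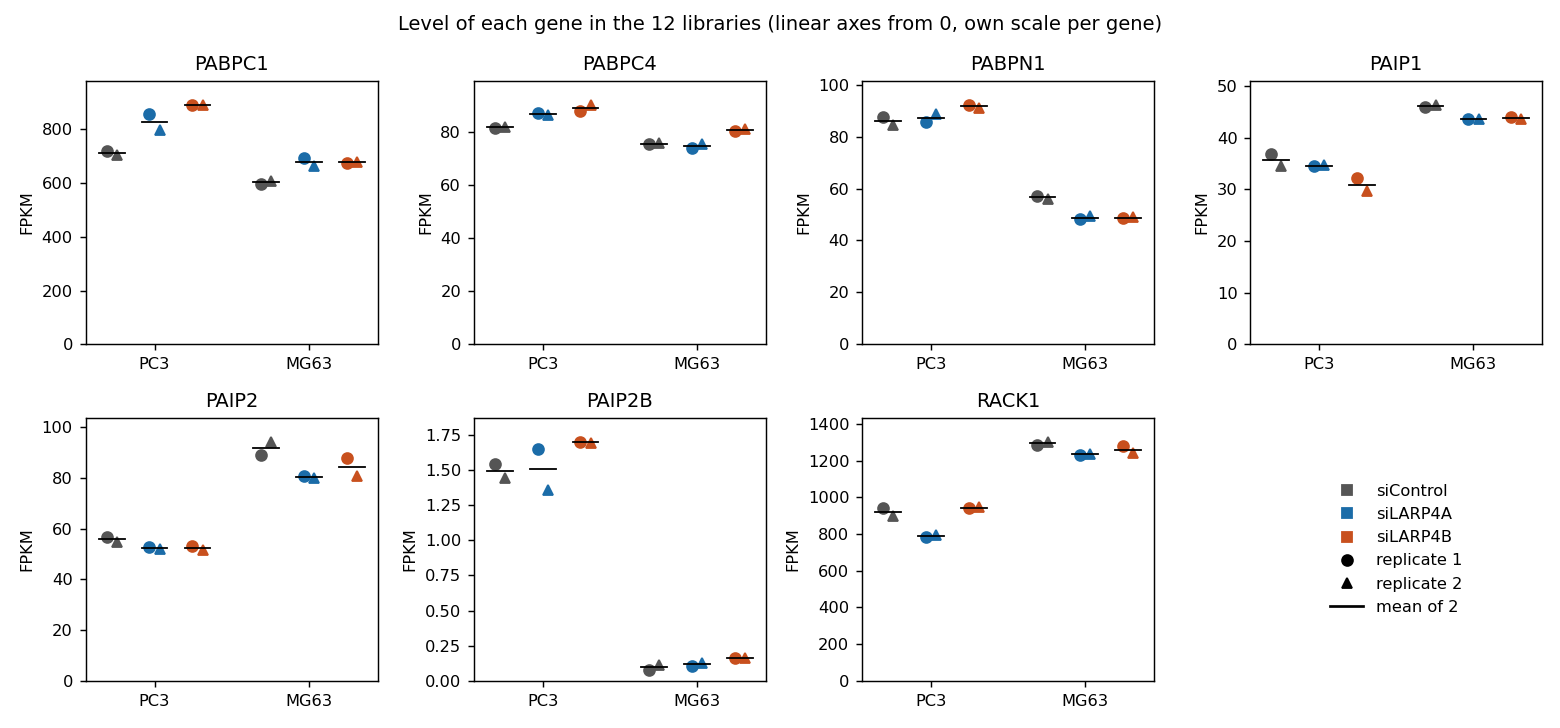
FPKM of each gene in the 12 libraries on linear axes from 0, with 1 panel per gene, circles for replicate 1, triangles for replicate 2 and a line at the mean of 2. PABPC1 sits between 597 and 608 FPKM in MG63 siControl and between 664 and 695 after either knockdown, and in PC3 the 2 siLARP4A libraries are the lowest for RACK1, at 782 and 792.

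PABPC1 (chr8:100702916-100722088, minus strand), the main cytoplasmic poly(A)-binding protein, rose after both knockdowns in both lines. In PC3 it was at 719 and 704 FPKM with siControl, 859 and 799 with siLARP4A and 891 and 889 with siLARP4B. All treated libraries lay above both control libraries. The rise was 17.9% after siLARP4A (log2 0.24, SE 0.040, adjusted p = 6.0e-05) and 24.7% after siLARP4B (0.32, SE 0.040, adjusted p = 8.9e-07). In MG63 it was at 597 and 608 FPKM with siControl, 695 and 664 with siLARP4A and 676 and 679 with siLARP4B. Again no treated library overlapped the controls. The share of all tested genes whose libraries lie apart in this way was not counted, here or for the genes below. The rises were smaller in value, 12.8% (0.17, adjusted p = 0.0022) and 13.8% (0.19, adjusted p = 8.5e-04). The differences between the lines did not pass the test, at 0.06 for siLARP4A (95% interval -0.05 to 0.18, adjusted p = 0.54) and 0.13 for siLARP4B (0.02 to 0.25, adjusted p = 0.088). PABPC1 was the 1 gene of the 7 that was higher in all 4 comparisons against siControl, and 0 were lower in all 4. Of all tested genes 1.42% were higher and 1.55% lower in all 4, and the comparisons within a line share their control libraries. The rises in MG63 were no longer called with the deduplicated table of PC3 siControl replicate 2 (0.19, adjusted p = 0.13, and 0.20, adjusted p = 0.11). That library is in no MG63 group but is in the same fit. The MG63 estimates did not shrink, while their SE was 0.09 against 0.04 with the full table. The cause was not tested. In its own library the deduplicated table kept 75.4% of the PABPC1 fragments against 85% over all genes.

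PABPC4 (chr1:39560816-39576790, minus strand), the inducible cytoplasmic poly(A)-binding protein, moved less. It was at 81.7 and 82.2 FPKM in PC3 siControl, 87.5 and 86.5 with siLARP4A and 88.2 and 90.4 with siLARP4B. All treated PC3 libraries were above the controls. The change was 0.12 after siLARP4B (adjusted p = 0.025), and 0.10 after siLARP4A, which did not pass (adjusted p = 0.061). MG63 had 75.6 and 75.9 FPKM with siControl, 74.2 and 75.5 with siLARP4A, and 80.4 and 81.3 with siLARP4B. Only the siLARP4B libraries stood above the controls there, and the rise of 0.11 was just past the threshold (adjusted p = 0.046). Both calls were fragile: the PC3 one passed in 6 of 21 alternative analyses and the MG63 one in 7 of 21, and with the replicate number as a block the latter had adjusted p = 0.068. An antisense transcript, PABPC4-AS1, overlaps the gene with 334 to 647 fragments, and PABPC4 itself had 4075 to 6834.

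PABPN1 (chr14:23321457-23326185, plus strand), the nuclear poly(A)-binding protein, fell in MG63 after either knockdown and not in PC3. In MG63 it was at 57.0 and 56.1 FPKM with siControl, 48.2 and 49.4 with siLARP4A and 48.6 and 48.9 with siLARP4B. The 4 knockdown libraries lay within 48.2 to 49.4, all below the controls. The changes were -0.21 (SE 0.048, adjusted p = 0.0019) and -0.20 (SE 0.047, adjusted p = 0.0027), a loss of 13.6% and 12.7%. They passed in all 21 alternatives. In PC3 the gene was at 87.4 and 84.4 FPKM with siControl, 85.5 and 88.9 with siLARP4A and 92.2 and 91.1 with siLARP4B. The siLARP4A libraries overlapped the controls (0.04, adjusted p = 0.54), while the siLARP4B libraries were above them by 0.09 without passing (adjusted p = 0.11). The difference between the lines passed its own test for siLARP4A (0.25, SE 0.066, adjusted p = 0.015) and for siLARP4B (0.29, SE 0.066, adjusted p = 0.0025). For siLARP4A it passed in 14 of 21 alternatives. The readthrough transcript BCL2L2-PABPN1 shares exons with PABPN1 and had 2008 to 5153 fragments, so fragments in the shared exons cannot be assigned to either. The other 2 PABPN1 models gave ratios of -0.21 and -0.22 in MG63 after siLARP4A. In PC3 they gave 0.02 and 0.07 after siLARP4A and 0.08 and 0.15 after siLARP4B. They overlap the model used and share fragments with it, so they cannot separate PABPN1 from the readthrough transcript.

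PAIP1 (chr5:43526268-43557077, minus strand), the PABPC1-binding stimulator of translation, fell in PC3 after siLARP4B. It was at 36.8 and 34.5 FPKM in PC3 siControl, 34.4 and 34.6 with siLARP4A and 32.2 and 29.6 with siLARP4B. The siLARP4B libraries were the lowest of the line. The change was -0.21 (SE 0.056, adjusted p = 0.0040), a loss of 13.5%, and it did not pass without PC3 siControl replicate 1 (-0.16, adjusted p = 0.074) or without PC3 siLARP4B replicate 2 (-0.16, adjusted p = 0.083). In MG63 the levels were 46.0 and 46.3 FPKM with siControl, 43.6 and 43.6 with siLARP4A, and 43.9 and 43.5 with siLARP4B. All 4 knockdown libraries were below the controls, but the changes of -0.08 and -0.06 did not pass (adjusted p = 0.29 and 0.40). The difference between the lines for siLARP4B, -0.15 (95% interval -0.31 to 0.01), did not pass either (adjusted p = 0.18).

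PAIP2 (chr5:139341854-139369717, plus strand), which inhibits PABPC1, passed once in the main fit against siControl. Its FPKM was lower in every knockdown library than in the controls of its line. With 2 libraries a group such an order can arise without a change. PABPC4 in MG63 after siLARP4A lay apart from its controls too, at a log2 change of -0.02. In MG63 it was at 89.0 and 94.2 FPKM with siControl, 80.7 and 79.8 with siLARP4A and 87.6 and 80.6 with siLARP4B. The change was -0.19 after siLARP4A (SE 0.054, adjusted p = 0.011), a loss of 12.4%, and -0.11 after siLARP4B (adjusted p = 0.14). Leaving out MG63 siControl replicate 2 (-0.14, adjusted p = 0.17), MG63 siLARP4A replicate 1 (adjusted p = 0.072) or MG63 siLARP4A replicate 2 (adjusted p = 0.098) ended the call. In PC3 PAIP2 was at 56.8 and 54.6 FPKM with siControl, 52.6 and 52.1 with siLARP4A and 53.3 and 51.4 with siLARP4B. The changes were -0.07 and -0.09 (adjusted p = 0.36 and 0.20). With the compared groups alone the siLARP4B change was -0.13 and passed (adjusted p = 0.028).

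PAIP2B (chr2:71182738-71227103, minus strand), the second inhibitor, had few fragments. In PC3 it was at 1.54 and 1.44 FPKM with siControl, 1.65 and 1.36 with siLARP4A and 1.70 and 1.69 with siLARP4B, from 162 to 258 fragments a library. In MG63 9 to 20 fragments gave 0.079 to 0.162 FPKM. None of its comparisons against siControl passed, and the 95% intervals were wide. After siLARP4B in MG63 the estimate was 0.73 with an interval from -0.01 to 1.46 (adjusted p = 0.12), so a change of that size was not resolved at this depth.

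RACK1 (chr5:181236901-181243906, minus strand), the 40S scaffold that LARP4 proteins bind, fell in PC3 after siLARP4A. It was at 944 and 896 FPKM with siControl, 782 and 792 with siLARP4A and 939 and 945 with siLARP4B. The siLARP4A libraries lay below all other PC3 libraries. The change was -0.21 (SE 0.039, adjusted p = 2.3e-04), a loss of 13.4%, while siLARP4B gave 0.03 (adjusted p = 0.56). In MG63 the levels were 1283 and 1303 FPKM with siControl, 1232 and 1235 with siLARP4A and 1279 and 1241 with siLARP4B. These knockdown libraries were slightly below the controls, and the changes of -0.07 (adjusted p = 0.22) and -0.02 (adjusted p = 0.75) did not pass. The difference between the lines for siLARP4A was -0.14 (95% interval -0.25 to -0.02) and did not pass (adjusted p = 0.11). Without a filter on low counts this difference was -0.19 and passed (adjusted p = 0.011). With 1 library left out it ranged from -0.19 to -0.09. With the deduplicated table of PC3 siControl replicate 2, which kept 72.2% of that library's RACK1 fragments, the PC3 change was -0.08 (adjusted p = 0.57).

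Across the 7 genes, 2 passed in PC3 after siLARP4A, where 36.4% of the 15683 tested genes did: 1 was higher (19.5% of tested genes) and 1 lower (16.9%). After siLARP4B in PC3 3 passed, against 45.7% of tested genes, with 2 higher (24.8%) and 1 lower (20.9%). In MG63 3 passed after siLARP4A, against 26.8%, with 1 higher (13.3%) and 2 lower (13.5%). After siLARP4B in MG63 3 passed, against 34.9%, with 2 higher (18%) and 1 lower (16.9%). Called changes lay between -0.21 and 0.32 in log2 size. The median size over all tested genes, called or not, was 0.222, 0.278, 0.194 and 0.225 in the same order. PABPC1 passed in 4 of these comparisons, PABPC4 and PABPN1 in 2, PAIP1, PAIP2 and RACK1 in 1 and PAIP2B in 0.

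**Figure D2:**
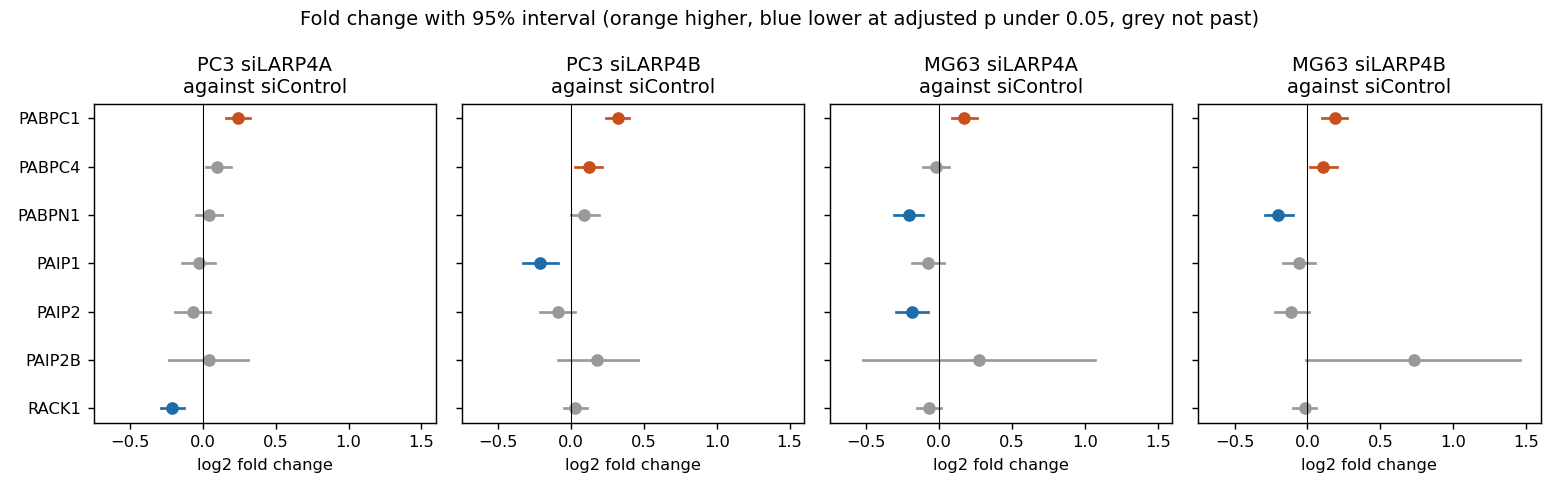
Log2 fold change against siControl with its 95% interval for the 7 genes, in 1 panel per comparison (orange higher, blue lower at an adjusted p under 0.05, grey not past). PABPC1 is orange in all 4 panels, PABPN1 is blue in both MG63 panels, and RACK1 is blue only after siLARP4A in PC3, where it changed by -0.21.

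Compared directly, the knockdowns differed for RACK1 and PAIP1 in PC3 and for PABPC4 in MG63. RACK1 in PC3 was lower with siLARP4A than with siLARP4B (-0.24, adjusted p = 2.1e-05), and PAIP1 was higher with siLARP4A by 0.18 (adjusted p = 0.0091). These were 2 of 7 genes, against 54.1% of tested genes, with 26.3% of tested genes higher and 27.8% lower with siLARP4A. PABPC4 in MG63 was lower with siLARP4A (-0.13, adjusted p = 0.018), 1 of 7 genes against 43.8% of tested genes, of which 21.6% were higher and 22.2% lower. PABPC1 did not pass in either line, at -0.08 in PC3 (95% interval -0.16 to 0.00) and -0.01 in MG63 (-0.10 to 0.07). Without PC3 siLARP4A replicate 1 the PC3 value was -0.13 (adjusted p = 0.011). The call of PAIP1 ended without PC3 siLARP4B replicate 2 (0.13, adjusted p = 0.15) and that of RACK1 with the deduplicated table (-0.23, adjusted p = 0.057). The PABPC4 call ended without any 1 of the 4 libraries compared (adjusted p = 0.054 to 0.15), with the FPKM minimum (0.066) and with the deduplicated table (0.081). PABPN1 in MG63 differed by -0.02 (-0.12 to 0.08). In the test of whether the lines responded differently, PABPN1 was the 1 gene of 7 to pass for each siRNA, against 11.2% of tested genes for siLARP4A (5.74% higher and 5.46% lower in PC3) and 26.8% for siLARP4B (12.4% and 14.4%).

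Between the lines, which also differed in culture medium, the differences exceeded the siRNA changes in size for PAIP2B, PAIP2, RACK1, PAIP1 and PABPN1. For PABPC1 the value was smaller, at 0.05 against 0.17 to 0.32 after knockdown. For PABPC4 it was -0.07, against -0.02 to 0.12 after knockdown. With siControl, 5 of the 7 genes differed between PC3 and MG63, against 82% of tested genes: 2 were higher in PC3 (41.3% of tested genes) and 3 lower (40.7%). PAIP2B was higher in PC3 by 3.72 on the log2 scale, a 13.2-fold difference with a 95% interval from 9.55 to 18.3, and PABPN1 by 0.42. PAIP2 was lower in PC3 (-0.90), as were RACK1 (-0.68) and PAIP1 (-0.56). PABPC1 (0.05, adjusted p = 0.21) and PABPC4 (-0.07, adjusted p = 0.13) did not pass. These values depend on the scaling, since FPKM and the trimmed-mean scale used in the test differ by 0.19 between the lines. On the log2(FPKM + 1) scale, PABPC1 was higher in PC3 by 0.24 (limma adjusted p = 2.8e-04) and PABPC4 by 0.11 (adjusted p = 0.0059), so the direction for PABPC4 flips.

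Ratios between the mRNAs within a library do not depend on library scaling. FPKM of PABPC1 over the summed FPKM of PAIP2 and PAIP2B was 12.3 and 12.6 in PC3 siControl, 15.8 and 15.0 with siLARP4A and 16.2 and 16.7 with siLARP4B. In MG63 the same ratio was 6.71 and 6.44 with siControl, 8.60 and 8.31 with siLARP4A and 7.71 and 8.40 with siLARP4B. It was higher in each knockdown library than in both controls of its line. Every knockdown library had more PABPC1 and less PAIP2 than those controls, so this order had to follow and is no separate result. RACK1 over PABPC1 was 1.31 and 1.27 in PC3 siControl, and 0.911 and 0.992 with siLARP4A, so PABPC1 exceeded RACK1 only in those 2 libraries. PABPC1 over PABPN1 in MG63 went from 10.5 and 10.8 with siControl to between 13.4 and 14.4 in the knockdown libraries. These ratios too restate changes of single genes given above.

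Few fragments came from the cytoplasmic relatives of PABPC1 and PABPC4. Of 6 other family genes (PABPC1L, PABPC3, PABPC4L, PABPC5, PABPN1L and the poly(A)-binding zinc finger protein ZC3H14), 5 were tested. In PC3, 1 was higher and 0 lower after siLARP4A (median 0.21), and 1 was higher and 1 lower after siLARP4B (median 0.00). In MG63 none passed after siLARP4A, and 0 were higher and 2 lower after siLARP4B (median -0.46). The median over all tested genes was within 0.04 of 0 in these comparisons. The shares of all tested genes higher and lower were 19.5% and 16.9%, and 24.8% and 20.9%, in PC3. In MG63 they were 13.3% and 13.5%, and 18% and 16.9%. Several list medians rest on genes with few fragments. PABPC5, at 0.00 in PC3 after siLARP4B, had 0 fragments there and in siControl. PABPC3, at 0.21 in PC3 after siLARP4A and -0.46 in MG63 after siLARP4B, had 22 to 52 a library. PABPC1L, an oocyte-type relative of PABPC1, rose from 4.29 ± 0.239 to 8.38 ± 0.513 FPKM (SD, n = 2) in PC3 after siLARP4B (0.96, adjusted p = 2.0e-08) and fell in MG63 from 7.82 ± 0.109 to 5.95 ± 0.344 FPKM (-0.38, adjusted p = 0.0020). The difference between lines was 1.34 (adjusted p = 1.0e-07). PABPC4L, named after its values were seen, fell after siLARP4B by 0.98 in PC3 and by 0.74 in MG63, from 49 to 149 fragments a library. PABPC3, whose sequence is close to that of PABPC1, had 22 to 52 fragments against at least 30924 for PABPC1.

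Partners of PABPC proteins include factors of deadenylation, miRNA silencing and translation termination, and 16 were tested. In PC3, 5 were higher and 5 lower after siLARP4A (median 0.07) and 3 higher and 5 lower after siLARP4B (median -0.04). In MG63 the counts were 2 and 4 (median 0.03) and 5 and 4 (median -0.05). Over all tested genes the shares higher and lower were 19.5% and 16.9%, and 24.8% and 20.9%, in PC3, and 13.3% and 13.5%, and 18% and 16.9%, in MG63. TNRC6A, a scaffold of miRNA silencing that binds PABPC1, moved in opposite directions with the 2 knockdowns in both lines. It went from 11.0 ± 0.308 FPKM (SD, n = 2) in PC3 siControl to 5.94 ± 0.450 with siLARP4A and 15.8 ± 0.216 with siLARP4B, changes of -0.87 and 0.51. In MG63 it went from 14.4 ± 0.0664 to 9.77 ± 0.0398 and 20.8 ± 1.12 FPKM, changes of -0.56 and 0.55. All 4 passed, with adjusted p of 2.6e-10, 1.7e-07, 1.9e-07 and 9.3e-08. TOB1, which bridges PABPC1 to the CCR4-NOT deadenylase, fell after siLARP4A by 0.72 in PC3 and by 0.52 in MG63, and rose by 0.29 in MG63 after siLARP4B. PAN2 and PAN3, the deadenylase that PABPC1 recruits, fell in MG63 after siLARP4B by 0.62 and 0.48. PAN3 also fell in PC3 after siLARP4B by 0.39, and PAN2 after siLARP4A by 0.32 in PC3 and 0.39 in MG63.

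On the cap-binding side of the same complex, EIF4E was lower and EIF4EBP2 higher in all 4 comparisons. Of all tested genes 1.55% were lower and 1.42% higher in all 4. Of 13 listed cap-side genes, 3 were higher and 3 lower after siLARP4A in PC3 (median 0.02), and 3 and 6 after siLARP4B (-0.12). The shares of all tested genes were 19.5% and 16.9%, and 24.8% and 20.9%. In MG63 2 were higher and 4 lower after siLARP4A (-0.02), and 3 and 4 after siLARP4B (0.01). There the shares were 13.3% and 13.5%, and 18% and 16.9%. EIF4E, the cap-binding protein, fell in PC3 from 5.35 ± 0.325 FPKM (SD, n = 2) to 3.83 ± 0.238 and 3.62 ± 0.00828, by 0.46 and 0.57 on the log2 scale. In MG63, where it lay below the naming minimum of 5 FPKM, it fell by 0.59 (adjusted p = 2.7e-06) and by 0.19, just past the threshold (adjusted p = 0.046). EIF4EBP2, which represses EIF4E, rose in PC3 from 35.6 ± 0.390 to 53.5 ± 0.257 FPKM with siLARP4A and 46.2 ± 1.16 with siLARP4B (0.61 and 0.37), and in MG63 by 0.53 and 0.40. EIF4A2, a helicase subunit, fell by 0.52 in PC3 after siLARP4A and by 0.53 and 0.45 in MG63, and rose by 0.12 in PC3 after siLARP4B (adjusted p = 0.041).

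Genes of the machinery that makes poly(A) tails were counted in the same way. Of 19 cleavage and polyadenylation genes, 1 was higher and 9 were lower after siLARP4B in PC3 (median -0.12), where 24.8% of all tested genes were higher and 20.9% lower. After siLARP4A in PC3 7 were higher and 3 lower (median 0.09), against 19.5% and 16.9% of tested genes. In MG63 0 were higher and 7 lower after siLARP4A (median -0.12), and 5 and 5 after siLARP4B (median -0.07). The shares over all tested genes were 13.3% higher and 13.5% lower, and 18% and 16.9%. The 7 lower genes in MG63 numbered 3 with DESeq2 and 10 with the compared groups alone. The 7 higher genes after siLARP4A in PC3 numbered 1 with the deduplicated table of PC3 siControl replicate 2. PAPOLA, the canonical poly(A) polymerase that PABPN1 stimulates, fell in PC3 after siLARP4B from 82.7 ± 1.03 to 41.1 ± 1.81 FPKM (SD, n = 2; -1.01, adjusted p = 3.7e-13) and in MG63 from 30.8 ± 0.178 to 22.3 ± 1.01 FPKM (-0.45, adjusted p = 7.3e-07). CPSF2, a subunit of the cleavage complex, fell in PC3 from 9.15 ± 0.167 to 4.67 ± 0.342 FPKM (-0.97, adjusted p = 1.6e-10). CPSF7 and CSTF2 were each at -0.75 in PC3 after siLARP4B, and CPSF7 was at -0.53 in MG63. NUDT21, a regulator of poly(A) site choice, fell in PC3 by 0.43 after siLARP4A and by 0.67 after siLARP4B. In MG63 it fell by 0.35 after siLARP4A, while siLARP4B gave -0.13 there (adjusted p = 0.051). Other named genes rose. In PC3 these were FIP1L1 (0.22) and CLP1 (0.30) after siLARP4A and CPSF1 (0.25) after siLARP4B. In MG63 they were CSTF1 (0.29) and CSTF3 (0.30) after siLARP4B.

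**Figure D3:**
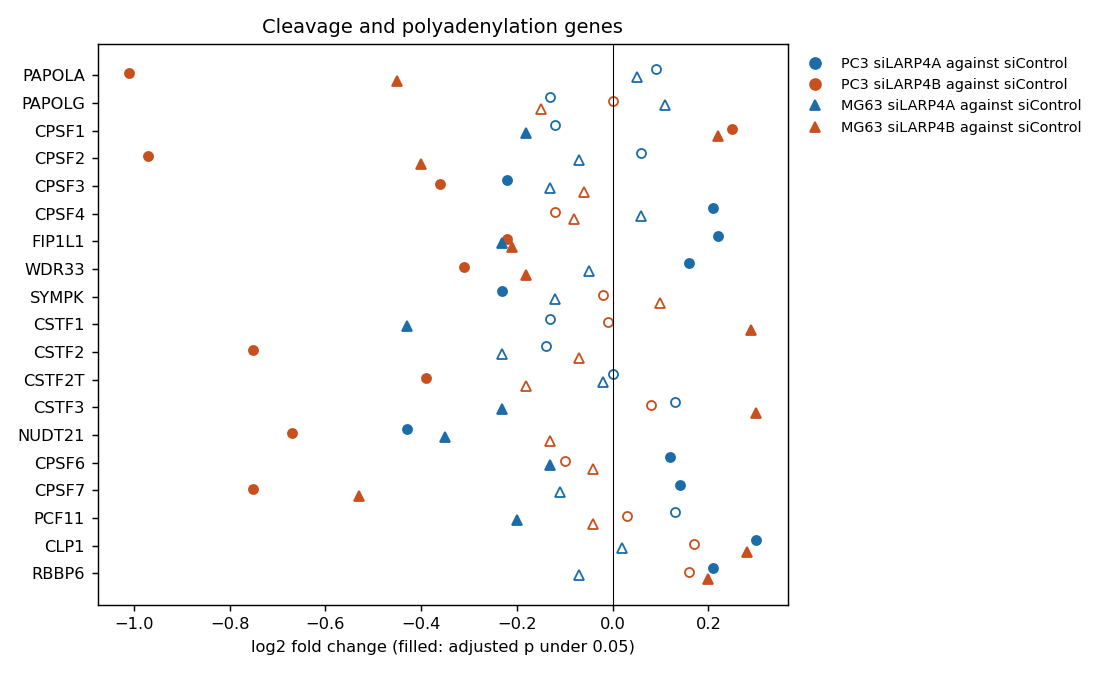
Log2 fold change against siControl of the 19 cleavage and polyadenylation genes (circles PC3, triangles MG63, blue siLARP4A, orange siLARP4B, filled where the adjusted p is under 0.05). PAPOLA and CPSF2 lie farthest to the left with siLARP4B in PC3, at -1.01 and -0.97.

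RACK1 fell together with genes of the 40S subunit on which it sits. Of 32 listed 40S ribosomal protein genes 29 were tested, the others being left out because their symbols occur on alternate contigs too. After siLARP4A in PC3 1 was higher (19.5% of tested genes) and 19 were lower (16.9%). Their median was -0.17 against 0.03 over all tested genes, and RACK1 changed by -0.21. The lowest were RPS16, from 1041 ± 61.1 to 761 ± 50.5 FPKM (SD, n = 2; -0.44, adjusted p = 2.7e-06), and RPS29, from 993 ± 8.91 to 746 ± 26.8 FPKM (-0.40, adjusted p = 4.8e-07). RPSA was the 1 higher gene, at 0.14. In MG63 0 were higher (13.3% of tested genes) and 3 lower (13.5%) after siLARP4A (median 0.01). The difference between lines passed for 10 of 29 genes, all lower in PC3, against 11.2% of tested genes (5.46% lower). After siLARP4B 12 were higher (24.8% of tested genes) and 0 lower (20.9%) in PC3. The median there was 0.09 against 0.04 over all tested genes. In MG63 11 were higher (18%) and 0 lower (16.9%), with a median of 0.07 against -0.00. RPS26 was at 0.25 in PC3 and RPS27 at 0.22 in MG63. In PC3, 26 of 29 were lower with siLARP4A than with siLARP4B (median -0.25), against 27.8% of tested genes, and RACK1 differed by -0.24. PABPC1, whose mRNA is known to belong to the same pyrimidine-tract class, rose by 0.24 where these genes fell. With the deduplicated table of PC3 siControl replicate 2 the 19 lower genes became 0, and without that library they numbered 19. The 12 higher genes after siLARP4B in PC3 numbered 6 without PC3 siControl replicate 2, and the 11 in MG63 numbered 2 with the deduplicated table. RACK1, PABPC1 and ribosomal protein genes have processed copies elsewhere in the genome, and how fragments matching several places were counted is not given in the sources used here.

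**Figure D4:**
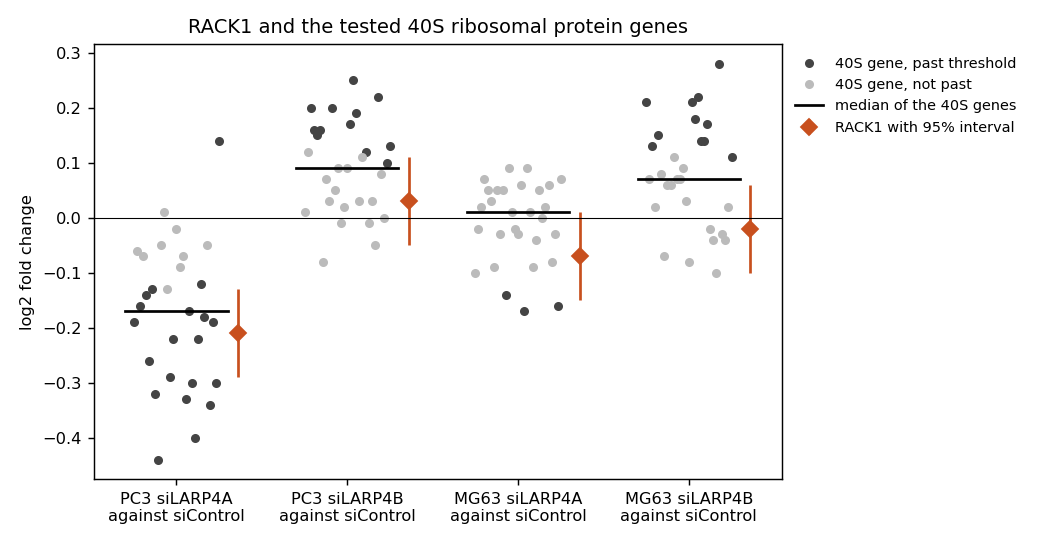
Log2 fold change against siControl of RACK1 (orange diamond with its 95% interval) and of the 29 tested 40S ribosomal protein genes (dark points past an adjusted p of 0.05, light points not, line at their median) in the 4 comparisons. In PC3 after siLARP4A RACK1 at -0.21 lies beside a 40S median of -0.17, and in the other comparisons its interval includes 0.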

How the data were processed

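Per the file headers, the authors deposited 1 table per library with a fragment count, an FPM signal and an FPKM value for each transcript model. FastQC, HISAT2, featureCounts, edgeR and build hg38 are named in the submitters' processing notes without their roles; strand and multi-mapping settings are not given in the sources used here. The deposited FPM is the count over the library total, and deposited FPKM is FPM per kilobase, both checked on the values; a fragment in several models counts in each. One model per symbol was kept (the most fragments over 12 libraries), and 1814 symbols at several loci or also on alternate contigs were left out, leaving 26464. A deduplicated table exists for PC3 siControl replicate 2 and was used as an alternative.

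Differences were fitted on these counts by edgeR 4.0.16 under R 4.3.3 (trimmed-mean scaling, filterByExpr with a minimum count of 10, quasi-likelihood F-test, 1 mean per group over all 12 libraries, 15683 genes). Adjusted p is Benjamini-Hochberg over all tested genes per comparison, threshold 0.05, and no p was adjusted over the 7 genes alone. The biological coefficient of variation was 4.22%. Alternatives were DESeq2 1.42.0, its size factors, limma 3.58.1 on log2(FPKM + 1), other filters, the longest model, the groups alone, a replicate block and leaving out each library. The fit was tested on simulated data.

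Members and gene lists were chosen with earlier results of these data known. Named list genes are the 2 highest and 2 lowest past the threshold with a mean FPKM of at least 5; a rule for naming genes of like pattern required a member change of 0.5, which none reached. With 2 libraries a group, p-values measure only the spread between these samples. The 3 PC3 tables of replicate 1 carry an empty last column that the other tables lack; each library's value is given. Sequences are from RefSeq; those of PABPC1, PABPC4 and PAIP2, and proteins, are not reported here.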

Additional observations from a re-analysis of the deposited data

Results flagged for a closer look

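For the genes below the response to 1 siRNA differed between PC3 and MG63 by a test of the difference itself (edgeR, adjusted p under 0.05). Values are the log2 change in PC3 minus that in MG63. The list genes given are a selection. Among others, LARP1 (-0.31) and HELZ (-0.41) after siLARP4B and CSTF3 (0.36) after siLARP4A also passed. PABPN1 was the 1 gene of the 7 in this set, at 0.25 for siLARP4A (adjusted p = 0.015) and 0.29 for siLARP4B (adjusted p = 0.0025). The targeted genes fell further in PC3, with -1.02 for LARP4 after siLARP4A and -0.75 for LARP4B after siLARP4B, and LARP4 also differed by -0.46 after siLARP4B. After siLARP4A the partner TNRC6A differed by -0.31, the cap-side repressor EIF4EBP1 by -0.46, the polyadenylation factor FIP1L1 by 0.44, and the 40S genes RPS16 and RPS29 by -0.40 and -0.35.

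After siLARP4B the poly(A)-binding relative PABPC1L differed by 1.34. Among PABPC partners TOB1 differed by -0.31, GSPT1, the release factor eRF3a, by -0.37 and PAN2 by 0.64. Among the listed cap-side genes, not all of which encode eIF4F subunits, the values were 0.57 for EIF4A2, -0.38 for EIF4E, -0.37 for EIF4A1 and -0.37 for EIF4G2. Among polyadenylation genes they were -0.57 for PAPOLA, -0.57 for CPSF2, -0.30 for CSTF1 and -0.22 for CPSF7. In the same list CSTF2 at -0.68, NUDT21 at -0.53 and CPSF3 at -0.29 also passed, which makes 7 of 19. CSTF2 and CPSF3 were named outside the naming rule.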

How the results depend on the processing

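Over the 7 genes and 9 comparisons, 1314 values were recomputed under alternatives. Of these, 1181 kept their direction and side of the threshold, 53 called values no longer passed, 17 uncalled values passed with the same sign and 63 uncalled values changed sign, 1 of which passed (PABPC4 between the siControl lines with limma); no called value changed sign. Unless a value below shows it, the cause was not tested. Depth limits PAIP2B, with 9 to 20 fragments in MG63.

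The deduplicated table of PC3 siControl replicate 2, which by its construction changes 1 library of 12, left 1 gene called after siLARP4A in PC3, 1 after siLARP4B in MG63, 1 between the siRNAs in PC3, 0 between them in MG63 and 0 for the line difference after siLARP4A. PC3 siControl replicate 2 is in no MG63 group, but all 12 libraries share 1 fit. A mean FPKM of at least 5 left 0 between the siRNAs in MG63. It gave 2 for the line difference after siLARP4B, as did the compared groups alone (2).

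Values near 0 changed sign as follows. After siLARP4B in PC3, RACK1 was -0.02 without a filter and -0.01 with the compared groups alone, and LARP4 was 0.00 when mean FPKM had to reach 5. PABPC4 after siLARP4A in MG63 was 0.00 without a filter, 0.00 with the FPKM minimum and 0.00 with the deduplicated table, and RACK1 after siLARP4B in MG63 was 0.00 without a filter. Between the siRNAs, PAIP2 in PC3 was -0.00 with the FPKM minimum. In MG63, that filter gave 0.03 for PABPC1, 0.02 for PABPN1 and 0.02 for PAIP1, and limma gave 0.00 for PABPC1 and 0.00 for PABPN1. For the line difference after siLARP4B, PABPC4 was -0.02 with DESeq2 size factors, -0.03 with DESeq2, -0.06 without a filter, -0.03 deduplicated and -0.04 with the groups alone. PAIP2 was -0.01, -0.02, -0.05, -0.02 and -0.03 in the same order. PAIP2B was 0.03 with limma and RACK1 -0.02 without a filter. Between the siControl lines, PABPC1 was -0.05 deduplicated, and limma gave 0.11 for PABPC4 and 0.07 for LARP4B; limma on FPKM moved the median of all genes by 0.18 there.

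With 1 library left out, the lone library being assumed to vary like the others, genes called ranged from 1 to 3 after siLARP4B in PC3, 1 to 3 between the siRNAs in PC3, 0 to 1 between them in MG63, and 0 to 2 for each line difference. Ranges that crossed 0 were, after siLARP4A in PC3, -0.09 to 0.03 for PAIP1 and -0.12 to 0.16 for PAIP2B, and after siLARP4B in PC3 -0.02 to 0.07 for RACK1. In MG63 they were -0.02 to 0.01 for PABPC4 after siLARP4A and -0.04 to 0.00 for RACK1 after siLARP4B. Between the siRNAs they were -0.03 to 0.01 for PABPC4 in PC3, and -0.04 to 0.03 for PABPC1 and -0.03 to 0.01 for PABPN1 in MG63. For the line difference after siLARP4A they were -0.01 to 0.12 for PABPC1 and -0.00 to 0.11 for PAIP1, and after siLARP4B -0.05 to 0.02 for PABPC4, -0.10 to 0.04 for PAIP2 and -0.02 to 0.09 for RACK1. The line difference of PABPN1 after siLARP4B had adjusted p = 0.05 without MG63 siControl replicate 1.

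Same-numbered libraries of a line did not deviate together (Pearson r across genes -0.0269 to 0.0492), so the numbers were not taken as pairs. With the replicate block, 1 member call changed, that of PABPC4 after siLARP4B in MG63 (0.11, adjusted p = 0.068), and PABPC1 was at 0.24 in PC3 after siLARP4A.

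Of 40 counts of called list genes against siControl, 25 moved by more than 1.5 times under at least 1 alternative. Their ranges are given in parentheses after the reported count. After siLARP4A in PC3 these were other poly(A)-binding genes higher 1 (0 to 1) and lower 0 (0 to 1), cap-side higher 3 (1 to 3), polyadenylation higher 7 (1 to 7) and lower 3 (1 to 5), and 40S higher 1 (0 to 1) and lower 19 (0 to 22). After siLARP4B in PC3 they were other poly(A)-binding lower 1 (0 to 1), partners higher 3 (2 to 5), cap-side lower 6 (3 to 7), polyadenylation higher 1 (1 to 2), and 40S higher 12 (6 to 17) and lower 0 (0 to 2). After siLARP4A in MG63 they were other poly(A)-binding lower 0 (0 to 1), partners higher 2 (1 to 3), cap-side lower 4 (2 to 4), polyadenylation lower 7 (3 to 10), and 40S higher 0 (0 to 4) and lower 3 (0 to 7). After siLARP4B in MG63 they were other poly(A)-binding lower 2 (1 to 2), partners lower 4 (2 to 5), cap-side lower 4 (1 to 4), polyadenylation higher 5 (3 to 5), and 40S higher 11 (2 to 13) and lower 0 (0 to 1). Over all tested genes, DESeq2 called 2032 higher in PC3 after siLARP4A against 3059, and 2545 after siLARP4B against 3893. After siLARP4A in MG63, leaving out a library gave as few as 1384 higher against 2085 and 1249 lower against 2123.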
